A study of Mus musculus with 12 samples.

Results

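The comparison followed what changed when mouse embryonic stem cells (ESCs) lacking Mettl3 were grown into embryoid bodies (EBs). It rested on 6 of the 12 libraries of the study: Mettl3-KO ESCs and Mettl3-KO EBs, each 0, 4 and 8 h after actinomycin, a drug that stops transcription. All cells carried the C57BL/6 background, and the other 6 libraries were the same cell types and hours from wild-type (WT) cells. Each of the 12 combinations was a single library. The ESCs were kept without serum in N2B27 medium with LIF and the inhibitors CHIR99021 and PD0325901, which hold mouse ESCs in the naive state. The EBs were aggregates grown in serum-containing fibroblast medium on non-adherent plates for 8 to 21 days, so cell state, medium and time in culture cannot be told apart. The labels name neither the deleted stretch of Mettl3, nor the number of knockout clones, nor whether the 3 hours came from the same culture. Of 19708 RefSeq entries in the table, 11807 had a mean deposited level of at least 50 over the 6 KO libraries and were followed.

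Mettl3 is the catalytic subunit of the complex that places N6-methyladenosine (m6A) on mRNA, a mark recognised by YTH-domain proteins and linked to faster mRNA decay. Naive ESCs express a dense network of transcription factors, with Nanog, Esrrb, Klf and Tfcp2l1 genes among them, that is dismantled when cells leave pluripotency. In EBs of normal cells an outer layer of endoderm forms early and secretes a basement membrane, and inner cells then take up germ-layer identities.

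The unit throughout is the authors' normalized level per RefSeq entry, here divided by a factor per library (the scaled level). The 3' ends of polyadenylated RNA were sequenced, and the spacing of the lowest values put each KO EB library at 524133 to 666805 reads and each KO ESC library at 335687 to 415568 reads. WT EB libraries stood at 565027, 376236 and 208874 reads at 0, 4 and 8 h, and WT ESC libraries at 307442 to 480158. These read numbers were inferred from the values. They let an exact Poisson interval be given for a level, covering counting error only. Of entries at the 12 commonest levels, 57.4 to 60.6% in KO ESCs and 74.6 to 80.1% in KO EBs stood at whole read numbers. Read equivalents can therefore be fractions, and for these the interval is approximate. Scale factors ran from 0.709 to 0.891 in KO EBs and from 1.25 to 1.34 in KO ESCs. Olfactory, vomeronasal, keratin-associated and defensin genes, 1426 entries that neither cell type is known to express, were above 0 for 34.0 to 36.2% of entries in KO EBs against 7.01 to 9.26% in KO ESCs. WT EBs, at 26.7 to 34.2%, and WT ESCs, at 6.80 to 9.61%, were split the same way, so low levels in EBs carry more of this signal. The part it plays in results on low-level genes was not tested, beyond a refit after its mean was subtracted from every level. Actinomycin leaves only decay, so a 0 h level describes the culture and the 4 and 8 h levels also carry RNA stability. After scaling, a level is relative to the median gene of its library, so a rise over the hours need not be a gain of RNA.

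Mettl3 itself stood at 73.3, 49.9 and 33.5 in KO ESCs at 0, 4 and 8 h and at 18.8, 51.2 and 118 in KO EBs. WT ESCs had 196, 62.0 and 118 and WT EBs 171, 121 and 163. At 0 h the KO levels were the lowest of the 4 cultures, resting on 3.90 and 1.58 read equivalents, while at 8 h the KO EB level matched that of WT ESCs. A tag at the 3' end says little about an internal deletion whose place is not given, so this checks the genotype only weakly. Marker genes gave a mixed account of the cell labels. The summed level of 5 ESC markers (Pou5f1, Sox2, Nanog, Zfp42 and Esrrb) was 22768 to 24275 in KO ESCs and 23495 to 24309 in KO EBs; WT ESCs had 40004 to 46487 and WT EBs 11897 to 20520. The 6 visceral endoderm markers summed to 146 to 188 in KO ESCs and 200.4 to 310.1 in KO EBs, and to 6169 to 7500 in WT EBs. Most of the ESC sum is Pou5f1. At 8 h Nanog, Zfp42 and Esrrb, at 1051, 791 and 1510.3 in KO EBs, stood below the 1936, 1467 and 2235 of KO ESCs. Pou5f1 and Sox2 stood above at that hour, at 19590 and 875 against 17529 and 769. At 0 h Zfp42 and Esrrb were higher in KO EBs, at 3230 and 1988 against 2997 and 1480. Pou5f1 was higher there too, while Nanog and Sox2 were lower. The endoderm marker sum of KO EBs lay far below that of WT EBs.

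Without Mettl3, few genes were called as changed between ESCs and EBs. Tested with limma on log2(scaled level + 25) over the 3 hour pairs, 145 genes rose in KO EBs, which is 1.23% of the 11807 tested, and 80 fell, which is 0.678%. In the same fit 878 genes rose in WT EBs (7.44%) and 1204 fell (10.2%). Without the 8 h WT pair, whose EB library was the shallowest, 380 rose and 632 fell in WT, and 259 and 174 in KO. What depth adds to the contrast of the genotypes was not tested. A gene is called here when its Benjamini-Hochberg adjusted p over all 11807 entries is under 0.05. No combination was repeated, so the spread behind it is how much the EB minus ESC difference varies from hour to hour. That spread is pooled over both genotypes and drawn towards a trend over all genes. The trend carries 28.2 degrees of freedom against 4 from the gene itself. Estimates are means of the 3 log2 differences with the standard error of the fit, and both genotypes share that error for each gene. At an unadjusted p under 0.05, the higher genes numbered 843 in KO (7.14%) and 1787 in WT (15.1%), and the lower ones 712 (6.03%) and 2069 (17.5%). The balance of higher and lower calls depended on the scaling: with levels as deposited 80 rose and 2238 fell in KO EBs around a median of -0.60 over all kept genes, and with columns scaled on ribosomal protein genes 93 rose and 777 fell around a median of -0.29.

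At 0 h, where no drug had acted, 888 genes (7.52%) stood at least 2-fold higher, on levels + 25, in the KO EB library than in the KO ESC library and 642 (5.44%) at least 2-fold lower. The WT pair had 1190 (10.1%) and 941 (7.97%). Across all kept genes the SD of the 0 h log2 difference was 0.68 in KO and 0.81 in WT. At 8 h the SD was 0.78 in KO and 1.21 in WT. Entries of low level made up most of the 2-fold counts at 0 h: among the 6122 entries with a mean level of at least 200, 306 were 2-fold higher and 232 lower in KO, and 465 and 376 in WT. The 145 called genes had a median log2 difference of 1.55 at 0 h, 1.54 at 4 h and 1.72 at 8 h, and the 80 lower genes -1.28, -1.38 and -1.42. Every gene of both sets kept its sign at each hour. For 116 of the 145 and 58 of the 80 the 0 h difference alone exceeded 2-fold. The KO EB and KO ESC libraries did not overlap for 132 of the 145 and 77 of the 80, while across all kept genes EBs lay wholly above ESCs for 1091 (9.24%) and wholly below for 1061 (8.99%). Both sets were selected on these same values. Their shared sign, size at 0 h and lack of overlap follow in large part from that selection and are a description only.

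Calls in KO EBs overlapped those in WT EBs in part, and the test of the difference between the genotypes was passed by 50 of the 145 genes that rose (49 with the larger change in KO) and by 22 of the 80 that fell (20 with the larger fall in KO). At 0 h 94 of the 145 and 54 of the 80 had the same sign in WT. Of the 145, 45 were also called higher in WT EBs (31.0% of the KO list and 5.13% of the WT list) and 17 were called lower there. Of the 80, 35 were called lower in WT EBs too (43.8% and 2.91%) and 7 were called higher. The median estimate of the 145 was 1.70 in KO and 0.38 in WT; that of the 80 was -1.43 and -0.61. In the other direction, the 878 genes called higher in WT had a median of 1.52 in WT and 0.27 in KO, and the 1204 called lower had -1.09 and -0.19. Lists were selected on the genotype whose median is larger, so these medians are a description. Requiring a KO level also removed 981 entries with a mean of at least 50 in WT, of which 274 were at least 2-fold higher in WT EBs at 0 h. Another 79 of them were at least 2-fold lower there. In KO EBs 275 of the 981 were at least 2-fold higher at 0 h and 10 lower, at KO levels under the filter.

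**Figure D1:**
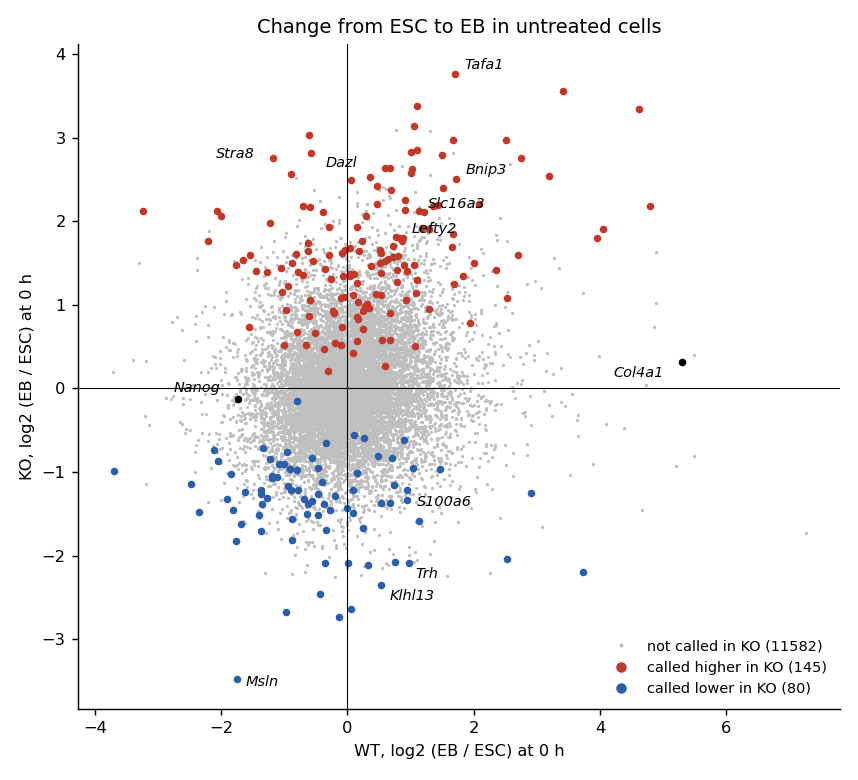
Log2 ratio of the EB to the ESC level at 0 h for 11807 genes, WT on the horizontal axis and KO on the vertical, both on scaled levels + 25. Red and blue points are the 145 and 80 genes called higher and lower in KO EBs over the 3 hours; Col4a1 lies far to the right with a KO value near 0, and Nanog lies to the left with a KO value near 0.

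Few genes of the pluripotency network were called in KO EBs. Pou5f1, the central pluripotency factor, had levels of 11831, 16505 and 17529 in KO ESCs and 12420, 17096 and 19590 in KO EBs at 0, 4 and 8 h, and its log2 difference was 0.09 ± 0.18 (SE), with a limma adjusted p of 0.883; with levels as deposited it was -0.61. Nanog stood at 3129, 1868 and 1936 in KO ESCs and 2854, 2369.6 and 1051 in KO EBs. Their ranges overlap, and the difference of -0.22 ± 0.27 was not called (limma adjusted p = 0.792). In WT cells Nanog fell from 3166, 2140 and 1579 to 938, 431 and 179.5, a difference of -2.32 ± 0.27 (limma adjusted p = 1.55e-07). The gap between the genotypes, 1.44 ± 0.26 for Pou5f1, was itself called, as was that for Nanog, with limma adjusted p = 0.000481 and 0.000518.

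Other factors of the naive network were not called either. Esrrb, Zfp42, Sox2, Klf4 and Tbx3 had KO differences between -0.44 and 0.41, none of them called. For Esrrb and Zfp42 the KO change differed from the WT change, by 1.53 ± 0.42 and 1.25 ± 0.37 (limma adjusted p = 0.0288 and 0.048). Tfcp2l1, a transcription factor of the LIF arm, came nearest to a fall: it stood at 1941, 1579 and 868 in KO ESCs and 811, 615 and 733 in KO EBs. Its libraries do not overlap, but the difference of -0.93 ± 0.28 had a limma adjusted p of 0.0855. Klf2 went down at each hour in KO, from 10073, 6491 and 4447 to 6701, 3666 and 2749.6, by -0.70 ± 0.25 (limma adjusted p = 0.18), and this change lay below that in WT by -1.34 ± 0.36 (limma adjusted p = 0.0249).

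Of the 22 naive pluripotency genes measured, 2 rose in KO EBs and none fell, with a median 0 h log2 difference of 0.02; in WT EBs 1 rose and 9 fell, with a median of -0.72. For 5 of them the KO change lay above the WT change and for 2 below, by the test of the difference. The 2 that rose were Dppa5a, which codes for an RNA-binding protein of pluripotent cells, and Tex19.1, a gene of germ cells and pluripotent cells that restrains retrotransposons. Dppa5a stood at 3384, 5971 and 7531 in KO ESCs and 7049, 11102 and 11070 in KO EBs, 0.83 ± 0.21 (limma adjusted p = 0.0251), while WT levels fell from 12519, 25565 and 25614 to 8299, 9784 and 6568. Tex19.1 stood at 561, 626 and 628 and 1088, 1458 and 1367, a difference of 1.07 ± 0.27 (limma adjusted p = 0.0266). Neither call held when any KO hour pair was left out or when levels were used as deposited, where 7 of the 22 genes were called lower and none higher. With columns scaled on ribosomal protein genes 4 were called lower and 1 higher. Over all 11807 kept genes 2238 were called lower and 80 higher with levels as deposited. With ribosomal protein scaling the counts over all kept genes were 777 and 93.

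Among 18 general pluripotency genes 2 fell and none rose in KO EBs (WT: 1 rose, 8 fell). Lin28a, an RNA-binding protein that blocks let-7 maturation, fell from 405, 679 and 652 to 160.4, 190.2 and 132, by -1.68 ± 0.32 (limma adjusted p = 0.00191), and at every hour the KO EB level was under the KO ESC range. Gdf3, a TGF-beta family ligand of pluripotent cells, fell from 2508, 2446 and 2524 to 1274, 1019.7 and 1146, by -1.11 ± 0.25 (limma adjusted p = 0.0107). In WT the Gdf3 change was -1.30 ± 0.25, and the genotypes differed by 0.19 ± 0.35 (limma adjusted p = 0.846). Neither Lin28a without the KO pair at 4 or at 8 h nor Gdf3 without any of the 3 KO pairs passed the threshold. Of 12 LIF and Stat3 targets limma called none in KO. At an unadjusted p under 0.05 it had 4 lower and none higher, where 6.03% and 7.14% of all kept genes were. In WT 5 of the 12 fell, where 10.2% of all kept genes did, and none rose. Their median 0 h difference was -0.67 in KO and -1.04 in WT.

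Lefty2 and Nodal rose in KO EBs, while the ligand Gdf3 fell. Lefty2, a secreted inhibitor of Nodal that Nodal itself induces, stood at 1007, 1239 and 1149 in KO ESCs and 3571, 3662 and 4061 in KO EBs, 3 libraries far above the other 3, 3.48-fold at 0 h on levels + 25. Its difference of 1.71 ± 0.25 (limma adjusted p = 8.27e-05) exceeded that in WT by 1.37 ± 0.36 (limma adjusted p = 0.0227). Nodal, the ligand, had 879, 34.9 and 104 in KO ESCs and 1407, 461 and 278 in KO EBs, so that the 0 h log2 difference of 0.66 was the smallest of the 3. Its call (1.64 ± 0.39, limma adjusted p = 0.0189) was lost without the KO pair at 4 or at 8 h. Nodal was the 1 gene of 14 formative and primed pluripotency genes to be called in KO EBs, where WT EBs had 4 higher and 3 lower. Dusp6, a phosphatase induced by ERK signalling, rose from 269, 102 and 21.5 to 699, 408 and 127 (1.59 ± 0.39, limma adjusted p = 0.0231), the 1 call among 13 ERK feedback genes. Smad7, an inhibitor of TGF-beta receptors, rose from 306, 128 and 90.6 to 527, 467 and 336 (1.36 ± 0.36, limma adjusted p = 0.0384), the 1 call among 13 BMP, Id and Smad targets. Of 9 Wnt targets kept limma called none, and 1 was higher and 1 lower at an unadjusted p under 0.05.

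**Figure D2:**
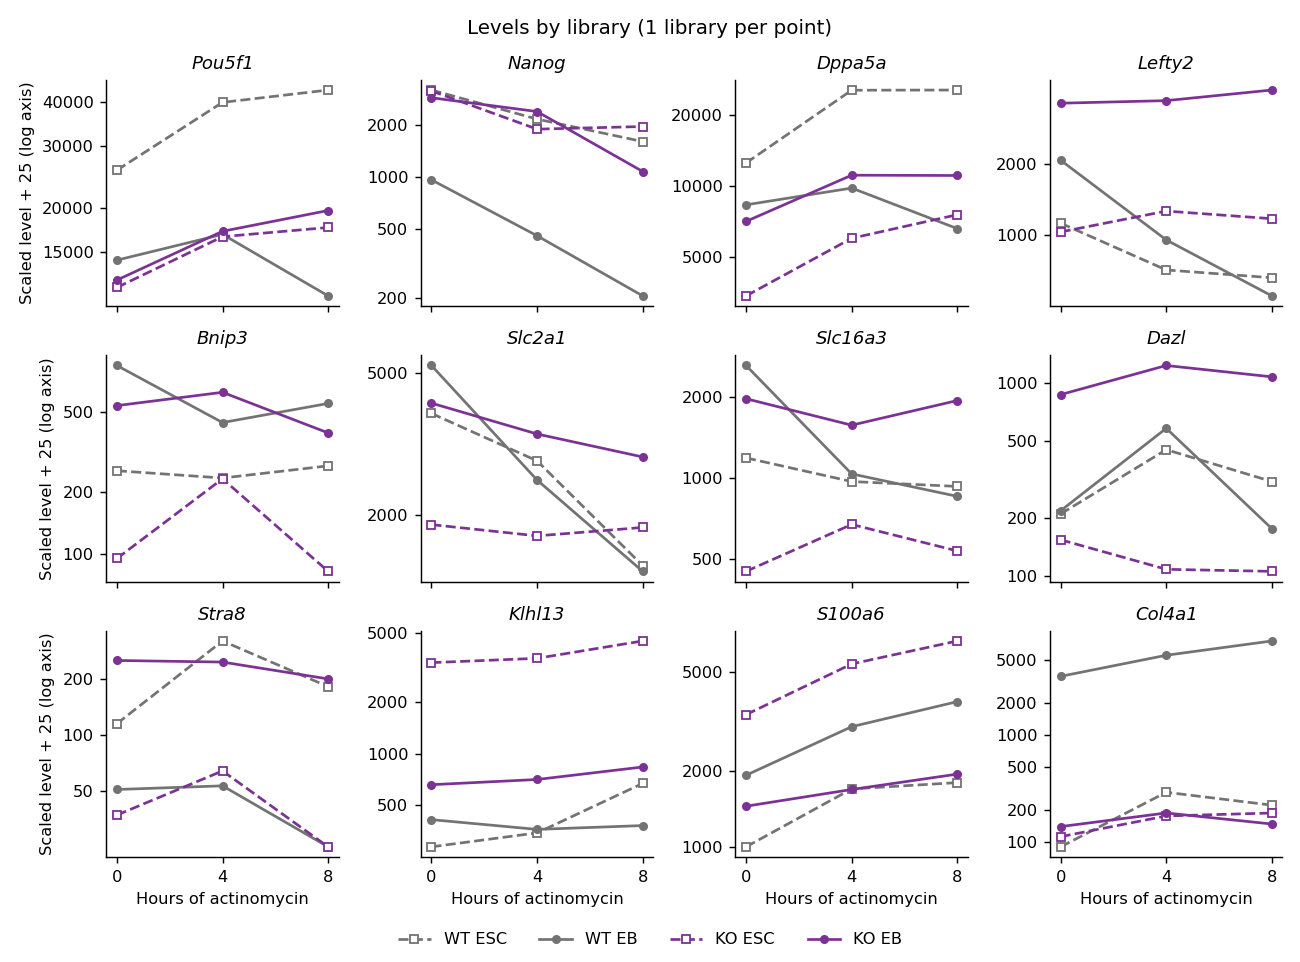
Scaled level + 25 on a log axis for 12 genes at 0, 4 and 8 h of actinomycin, 1 library per point; filled circles with solid lines are EBs, open squares with dashed lines ESCs, purple KO and grey WT. KO lines for Pou5f1 and Nanog lie close together, those for Lefty2, Bnip3, Slc2a1, Slc16a3, Dazl and Stra8 have the EBs on top, those for Klhl13 and S100a6 the ESCs on top, and Col4a1 is high in WT EBs alone, at levels of 3500.2 to 7524.

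Some genes of the hypoxia response and of glucose use rose in KO EBs. Of 17 hypoxia targets kept, 5 rose, where 1.23% of all kept genes did, none fell and 12 were not called, with a median 0 h log2 difference of 0.65 in KO and 0.66 in WT, where 6 rose and 1 fell; over all kept genes the median was -0.01 in each. The test of KO against WT change called none of the 17 (at an unadjusted p under 0.05 the KO change lay above for 4 and below for 1, against 10.0% and 7.43% of all kept genes). The 5 were Bnip3, a mitochondrial protein that drives mitophagy; Ankrd37, an ankyrin-repeat gene induced in low oxygen; Ddit4, an inhibitor of mTORC1; P4ha1, a subunit of collagen prolyl hydroxylase; and Slc2a1, the glucose transporter GLUT1. The hypoxia-inducible factors bind DNA at a core that reads ACGTG, or less often GCGTG. The stretches shown come from the 250 bases before the RefSeq start of each of the 5 genes (GRCm38.p6, the assembly also called mm10), to show what such a core looks like beside the genes of the group that rose. They read 5' to 3' on the gene's strand, with each ACGTG or its complement CACGT in capitals; the motif was searched on both strands after the values of these genes were known.
Slc2a1 (chr4:119108674-119108744, plus strand): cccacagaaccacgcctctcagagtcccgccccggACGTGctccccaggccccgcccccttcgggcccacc
Bnip3 (chr7:138909574-138909649, minus strand): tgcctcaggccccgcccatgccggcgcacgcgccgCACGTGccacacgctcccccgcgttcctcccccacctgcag
Ankrd37 (chr8:46000052-46000100, minus strand): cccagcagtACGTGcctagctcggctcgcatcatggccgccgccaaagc
P4ha1 (chr10:59323245-59323295, plus strand): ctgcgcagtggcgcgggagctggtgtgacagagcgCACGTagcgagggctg
Ddit4 (chr10:59951918-59951992, minus strand): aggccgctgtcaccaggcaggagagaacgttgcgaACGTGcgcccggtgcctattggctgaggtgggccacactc
In Bnip3 the 2 strands overlap in a palindrome. All 5 genes held ACGTG, as did 10 of the 14 kept list members with a promoter entry and 16.6% of the 32851 entries of the promoter table; 38.6% of entries held ACGTG or GCGTG. The match is a description of these windows and not a site.

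Bnip3 stood at 69.5, 208 and 56.7 in KO ESCs and 510.4, 598 and 368 in KO EBs, and the lowest EB library was above the highest ESC library. The 0 h ESC level rested on 3.70 read equivalents (95% exact Poisson interval of the level 17.7 to 184) and the EB level had an interval of 369 to 688. The difference was 2.06 ± 0.34 (limma adjusted p = 0.00045) and was called under each of the 19 other settings run. Ddit4 went from 731, 879.9 and 614 to 2244, 1852 and 2451, 3.00-fold at 0 h on levels + 25 and 1.53 ± 0.26 over the hours (limma adjusted p = 0.000582). P4ha1 went from 281, 140.2 and 231 to 620, 900.3 and 728 (1.71 ± 0.29, limma adjusted p = 0.000582), and in WT cells from 516, 429 and 561 to 3109, 3942 and 4684, and the difference of the changes, -1.18 ± 0.41, did not pass (limma adjusted p = 0.104). Slc2a1 stood at 1856, 1725 and 1823 in KO ESCs and 4084, 3345 and 2882 in KO EBs (0.91 ± 0.22, limma adjusted p = 0.0231); its WT libraries crossed over the hours, from 3821, 2810.3 and 1420.5 in ESCs to 5209.7, 2481 and 1368 in EBs. Ankrd37 was at 37.6, 109.7 and 0 in KO ESCs and 262, 242 and 141 in KO EBs (1.97 ± 0.46, limma adjusted p = 0.0176), with 2.00 read equivalents in the 0 h ESC library. Members that did not pass include Pdk1, a kinase that diverts pyruvate from mitochondria, at 1.07 ± 0.32 (limma adjusted p = 0.0789), and Vegfa, the vascular growth factor, at 0.95 ± 0.39 (limma adjusted p = 0.262). Without the KO pair at 0, 4 or 8 h, 3, 3 and 2 members were called; with levels as deposited 3 were, and their median estimate moved from 0.95 to 0.34.

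Of 20 glycolysis genes 4 rose in KO EBs, where 1.23% of all kept genes did, none fell and 16 were not called. Their 0 h median was 0.68 in KO and 0.01 in WT, where 1 rose and 4 fell. Over all kept genes the 0 h median was -0.01 in each genotype. Slc2a1 is on this list too. For 6 of the 20 the KO change lay above the WT change by the test of the difference, and for none below. The shares over all kept genes were 2.26% and 1.68%. Slc16a3, the lactate exporter MCT4, stood at 427, 649 and 513 in KO ESCs and 1941, 1544 and 1911 in KO EBs, more than any KO ESC library at every hour and 4.35-fold at 0 h on levels + 25 (1.73 ± 0.28, limma adjusted p = 0.000259). Aldoa, an aldolase, went from 5916, 5592 and 5378 to 11126, 10672 and 8336 (0.82 ± 0.18, limma adjusted p = 0.00861). Pfkp, a phosphofructokinase, went from 381, 436 and 333 to 1010.5, 754 and 842 (1.13 ± 0.28, limma adjusted p = 0.0267). Part of the contrast with WT lies in the ESCs: at 0 h Aldoa was 5916 in KO ESCs and 13993 in WT ESCs, and 11126 and 12042 in the EBs. Pgk1 had the same arrangement, 2620.5, 3615 and 4142 to 4654, 6057 and 5912 in KO (0.69 ± 0.21, limma adjusted p = 0.0926) and 7337, 12323 and 13124 to 4538, 4703 and 3574 in WT. Gapdh, Pkm and Eno1 differed by 0.07, 0.25 and 0.09 and were not called. The list depended on the scaling. Its median estimate of 0.42 became 0.11 with ribosomal protein scaling (2 rose, 1 fell) and -0.20 with levels as deposited (1 rose, 1 fell), and 1 member was called without the KO pair at 0, 4 or 8 h in turn and none with no variance trend.

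Some germ-cell genes rose. Of 12 kept members of the germ line list 2 rose, Dazl and Taf7l, where 1.23% of all kept genes did, and none fell. The 0 h median was 0.52 in KO and -0.07 in WT. At 0 h 3 members were at least 2-fold higher in KO EBs and 2 at least 2-fold lower. By the test of the difference the KO change lay above the WT change for 2 members and below it for 2. Dazl, an RNA-binding protein needed for germ cell development, stood at 129.7, 83.8 and 81.2 in KO ESCs and 846, 1207 and 1051 in KO EBs; the WT levels were 185, 427 and 284 in ESCs and 193, 558 and 151 in EBs. The KO EB libraries were above every other library, the KO difference was 3.11 ± 0.34 (limma adjusted p = 4.43e-07) and the call was made under each setting run. It exceeded the WT change by 3.24 ± 0.49 (limma adjusted p = 3.54e-05). Taf7l, a germ-cell relative of a TFIID subunit, had 18.8, 0 and 0 in KO ESCs and 113, 152 and 131 in KO EBs (2.37 ± 0.46, limma adjusted p = 0.00237). It stood on 1.00 and 9.50 read equivalents at 0 h, and the call was lost without the KO pair at 4 or at 8 h. Taf7l passed the level filter only through its KO EB levels, so its place among the 12 is not independent of its rise.

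Stra8, Sohlh2 and Tex13b, germ-line genes outside that list, rose as well and came up through the rule for the largest differences. Stra8, which retinoic acid induces before meiosis, stood at 12.0, 38.9 and 0 in KO ESCs and 225, 221 and 174 in KO EBs (2.56 ± 0.48, limma adjusted p = 0.00147). WT ESCs had 89.6, 294 and 156 and WT EBs 25.8, 28.1 and 0, so the order of the cell types was reversed in WT and the changes differed by 4.77 ± 0.67 (limma adjusted p = 1.22e-05). Sohlh2, a helix-loop-helix factor of early germ cells, went from 70.3, 192 and 199 to 753, 705 and 479 in KO (1.98 ± 0.37, limma adjusted p = 0.00147) and from 433, 499.5 and 413 to 275, 153 and 82.0 in WT. Tex13b, a testis-expressed gene, was at 13.9, 0 and 41.7 in KO ESCs and 145, 165 and 102 in KO EBs (2.00 ± 0.43, limma adjusted p = 0.00805), while WT ESCs had 807, 689 and 643 and WT EBs 62.8, 109 and 27.3. The KO EB levels of Tex13b lay below all WT ESC levels, those of Stra8 within their range, and those of Sohlh2 overlapped them from above. The 0 h KO ESC levels of Stra8 and Tex13b each held under 1 read equivalent, with exact Poisson intervals that reach up to 92.7 and 96.1. Both genes passed the level filter only through their KO EB levels, so the filter favoured a rise. The call of Stra8 was lost without the KO pair at 8 h, that of Sohlh2 without the pair at 0 h, and that of Tex13b without the pair at 0 or at 4 h.

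The largest rises at 0 h, among genes with a scaled level of at least 200 in every KO EB library, were those of Tafa1, Hdx, Zfpm2 and Grem1. Tafa1, a secreted chemokine-like protein known from brain, stood at 101, 68.3 and 115 in KO ESCs and 1678, 1770.3 and 2449.5 in KO EBs, 13.5-fold at 0 h on levels + 25 (4.06 ± 0.31, limma adjusted p = 2.26e-10). The intervals of the 0 h levels, 34.3 to 229 and 1412 to 1979, lie far apart. Its rise was larger than that in WT by 2.45 ± 0.44 (limma adjusted p = 0.000443). Hdx, an X-linked homeobox gene, had 45.1, 0 and 80.3 and 798, 921 and 903 (3.98 ± 0.40, limma adjusted p = 1.13e-07), and WT EBs, at 589, 584 and 1424, were in the same range. Zfpm2, a cofactor of GATA proteins, had 42.8, 48.4 and 83.3 and 678, 539 and 799.5 (3.08 ± 0.37, limma adjusted p = 2.3e-06). Grem1, a secreted BMP antagonist, was at 0, 28.9 and 0 in KO ESCs and 228, 521 and 247 in KO EBs (3.37 ± 0.40, limma adjusted p = 1.86e-06), and reached 589, 1446 and 1850.5 in WT EBs. With 0 reads in the 0 h ESC library the Grem1 level there has an interval of 0 to 69.3, and its fitted difference depends on the added 25. Grem1 also passed the level filter only through its KO EB levels.

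The other genes named by that rule rose by 1.86 to 3.14 over the hours. Pknox1, a homeodomain partner of Hox and Pbx proteins, stood at 121, 99.8 and 93.6 in KO ESCs and 961, 968 and 1481 in KO EBs, and at 76.3, 67.2 and 134 and 653, 1262 and 2677 in WT: a rise in both genotypes (3.14 ± 0.33 and 3.54 ± 0.33), whose difference of -0.41 ± 0.47 did not pass (limma adjusted p = 0.727). Aire, the transcriptional regulator of the thymus epithelium, went from 82.7, 151 and 132 to 637, 739 and 861 (2.41 ± 0.37, limma adjusted p = 0.000154), and differed from WT by 2.16 ± 0.53 (limma adjusted p = 0.0121). Zfhx2, a zinc-finger homeobox gene, went from 39.1, 70.3 and 42.5 to 355, 215 and 262 (2.00 ± 0.41) and differed from WT by 2.44 ± 0.58 (limma adjusted p = 0.00945). Sgip1, an endocytic adaptor, Cgnl1, a junction protein, Myt1l, a neuronal zinc-finger factor, and Ier5, an immediate early gene, had differences of 2.76 ± 0.42, 1.86 ± 0.40, 2.59 ± 0.44 and 2.29 ± 0.47, and for none of the 4 did the difference from WT pass the test (limma adjusted p of 0.569, 0.877, 0.375 and 0.973). Their 0 h KO ESC levels rested on 0.82, 4.78, 1.00 and 0.86 read equivalents. Of the 22 kept entries of the families taken as silent, 1 was also called higher, Vmn2r65, at 18.8, 0 and 0 and 178, 101 and 325. It was kept only through its KO EB levels. The median genomic span was 18.8 kb for the 145, 15.2 kb for the 80 and 26.2 kb for all kept genes. Spans over 100 kb made up 13.9%, 10.0% and 16.3% of these sets, and any part played by gene length was not tested.

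Genes that fell in KO EBs were on the whole better covered, with a median scaled level of 780.2 against 302 for those that rose and 199 for all kept genes. Camk1d, a calcium and calmodulin dependent kinase, stood at 16798, 25490 and 28189 in KO ESCs and 5119, 5361 and 5641 in KO EBs (-2.09 ± 0.19, limma adjusted p = 6.06e-09). It fell in WT too, by -1.69 ± 0.19, and the difference between the genotypes did not pass (-0.40 ± 0.26, limma adjusted p = 0.46). Klhl13, an X-linked adaptor of a Cul3 ubiquitin ligase, stood at 3351, 3551 and 4486 and 635, 682 and 811 (-2.38 ± 0.28, limma adjusted p = 1.86e-06), whereas WT levels were 262, 321 and 646 in ESCs and 388, 338 and 357 in EBs. The KO EBs thus came nearer to WT levels than the KO ESCs were, and the changes differed by -2.30 ± 0.40 (limma adjusted p = 0.000299). Trh, the precursor of thyrotropin-releasing hormone, fell from 1299, 2077 and 1541 to 285, 209 and 284 (-2.53 ± 0.28, limma adjusted p = 4.43e-07); WT ESCs had 1319, 1613 and 1999 and WT EBs 2605, 2429.8 and 1545, and the changes differed by -2.93 ± 0.40 (limma adjusted p = 5.67e-06).

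Aim2, a sensor of cytosolic DNA, fell from 577, 644 and 753 to 147, 136 and 141 (-2.03 ± 0.34, limma adjusted p = 0.000554), and Cltb, a clathrin light chain, from 350.3, 753 and 977 to 35.5, 177 and 161 (-2.34 ± 0.35, limma adjusted p = 0.000101). Msln, the surface protein mesothelin, had the largest 0 h difference among the genes named here that fell, from 466, 745 and 289.9 to 19.3, 96.0 and 88.5 (-2.54 ± 0.45, limma adjusted p = 0.000816), with 1.62 read equivalents left in the 0 h EB library. In WT it also fell, by -1.85 ± 0.45. Gli1, the transcription factor at the end of hedgehog signalling, fell in both genotypes (-1.19 ± 0.33 in KO, limma adjusted p = 0.0481; -1.34 ± 0.33 in WT). Flywch1, Bace1, the beta-secretase, Patz1, a BTB zinc-finger factor, and Ifitm1, an interferon-induced membrane protein, differed by -1.53, -1.65, -1.17 and -1.21; Flywch1 and Bace1 differed from WT by -1.82 ± 0.51 and -2.60 ± 0.60 (limma adjusted p = 0.036 and 0.00796).

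The 7 genes that fell in KO EBs and rose in WT EBs were Podxl, S100a6 with its neighbour S100a5, Sparc, Pga5, Clu and Ephb4; the last 2 and S100a5 are named after their values were seen. Podxl, the sialomucin podocalyxin, fell from 732, 525 and 402 in KO ESCs to 159, 121 and 178 in KO EBs (-1.68 ± 0.31, limma adjusted p = 0.00126) and rose from 313, 287 and 262 to 1917, 2262 and 3138 in WT, a difference of -4.63 ± 0.43 (limma adjusted p = 5.93e-09). S100a6, a calcium-binding protein abundant in fibroblasts, fell from 3341, 5338 and 6602 to 1425, 1666 and 1923 (-1.55 ± 0.22, limma adjusted p = 5.39e-05) and was at 973, 1674 and 1776 and 1902, 2987 and 3768 in WT, so at each hour the KO ESC level was the highest of the 4 cultures. Sparc, a matrix protein of basement membranes, went from 1971, 2181 and 2854 to 998, 1365 and 1501 in KO (-0.85 ± 0.21, limma adjusted p = 0.0255) and from 2369.5, 3305 and 3647 to 6583, 10360 and 11752 in WT. Pga5, a pepsinogen, fell from 246, 185 and 226 to 34.3, 44.5 and 66.0 (-1.75 ± 0.38, limma adjusted p = 0.00798) and was at 1400.2, 1707 and 3042 in WT EBs. It passed the level filter only through its KO ESC levels. Clu, the secreted chaperone clusterin, and Ephb4, an ephrin receptor, changed by -1.57 ± 0.32 and -1.41 ± 0.38 in KO and by 2.52 ± 0.32 and 1.32 ± 0.38 in WT. The KO call of Sparc was lost without any KO pair and without the WT pair at 4 h, and those of Podxl and Pga5 without the KO pair at 0 or at 4 h.

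The rise of endoderm and basement membrane genes in WT EBs had no counterpart among the KO calls. Of 14 kept genes of parietal endoderm and basement membrane none rose and 1 fell in KO by limma (1 and 4 at an unadjusted p under 0.05), with a 0 h median of -0.21, while 12 rose in WT with a median of 1.83. The difference between the genotypes was called for 10 of them, each with the lower change in KO. Col4a1 and Col4a2, the collagen IV chains, stood at 86.8, 149.6 and 161 and 127, 104 and 221 in KO ESCs. KO EBs had 114, 161 and 122 for Col4a1 and 77.4, 101 and 148 for Col4a2, differences of 0.02 ± 0.32 and -0.37 ± 0.38 that were not called. WT EBs reached 3500.2, 5522 and 7524 and 1779, 4024 and 3757. Lama1, Lamb1 and Lamc1, the chains of laminin-111, had KO differences of -0.93 ± 0.38, -0.29 ± 0.28 and -0.60 ± 0.26 (limma adjusted p = 0.259, 0.728 and 0.288) and fell short of the WT change by -4.86 ± 0.54, -4.01 ± 0.39 and -2.34 ± 0.37. In bulk RNA, fewer cells of a type and less RNA per cell cannot be told apart.

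Only 7 of 21 visceral and definitive endoderm genes reached the mean level of 50 in KO, and limma called none of the 7 (1 was higher at an unadjusted p under 0.05), against 3 that rose in WT. Afp, the fetal serum carrier, was at 41.0, 50.4 and 38.2 in KO ESCs and 62.2, 85.6 and 83.1 in KO EBs (0.58 ± 0.37, limma adjusted p = 0.541), and at 2386, 2650 and 3451 in WT EBs. Ttr, the thyroxine carrier, was left out by the level filter; its levels were 45.5, 14.5 and 21.5 and 8.34, 20.1 and 50.5 in KO ESCs and EBs and 2575, 2452 and 2801 in WT EBs. The transcription factors Gata6 and Sox17 were likewise below the filter, with 0 h levels of 15.2 and 12.6 in KO EBs, where WT EBs had 159.6 and 230.4. Krt8, a keratin of simple epithelia, was at 906, 1209 and 1417 in KO ESCs and 931, 1326 and 874 in KO EBs, a level present in KO ESCs already, where WT ESCs had 84.2, 187 and 106 and WT EBs 2867, 4335 and 4499.5. Among 20 epithelial and junction genes 1 fell in KO and 12 rose in WT (9 with the lower change in KO), and among 14 trophoblast genes limma called none in KO (2 higher and 2 lower at an unadjusted p under 0.05) and 8 rose in WT (6 with the lower change in KO).

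**Figure D3:**
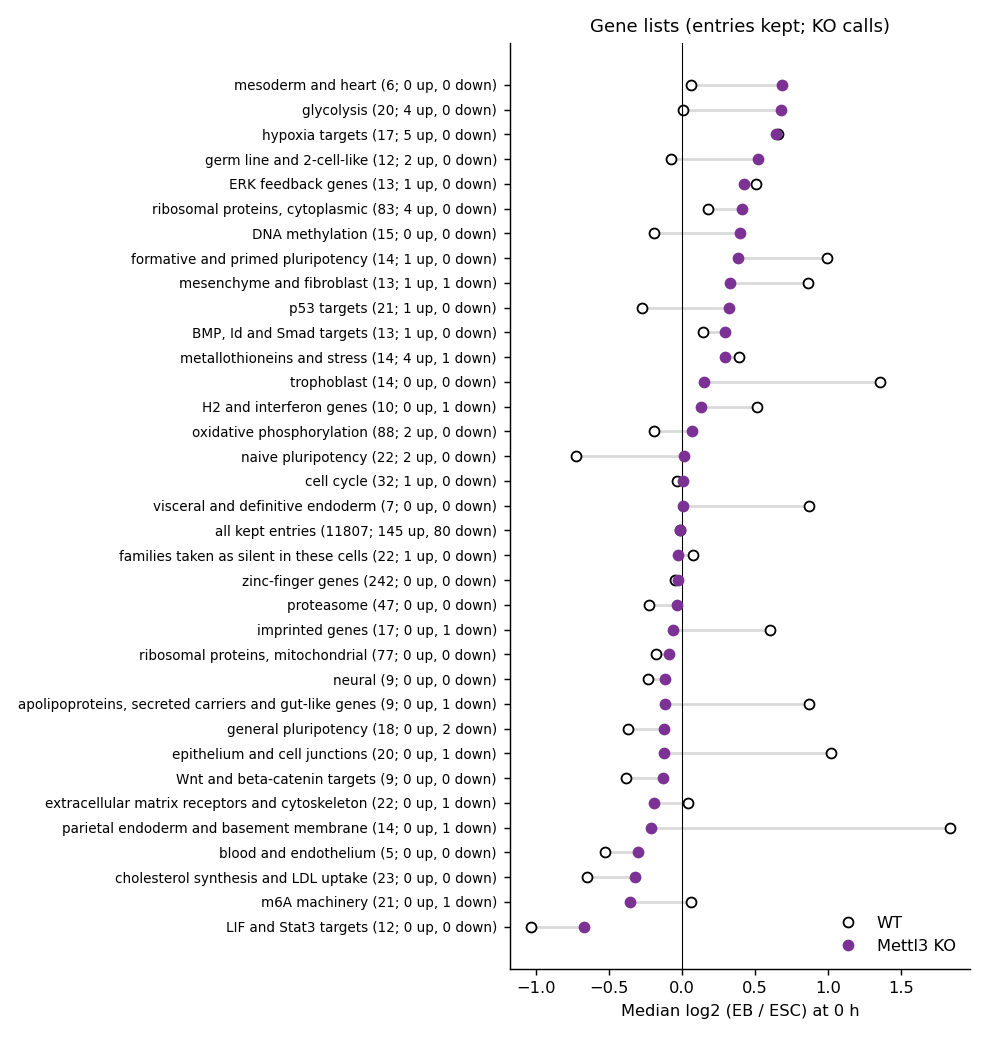
Median 0 h log2 ratio of EBs to ESCs for each gene list with at least 5 entries kept, KO as filled and WT as open circles, with the number of entries kept and the KO calls in brackets. The endoderm, basement membrane, trophoblast and epithelium lists sit between -0.21 and 0.15 in KO and between 0.87 and 1.83 in WT, and the hypoxia list is at 0.65 in KO and 0.66 in WT.

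Other lineage lists gave little in KO EBs. The level filter kept 6 of 21 mesoderm and heart genes, 9 of 21 neural genes, 5 of 17 blood and endothelium genes and 2 of 39 Hox genes. None of them was called by limma. At an unadjusted p under 0.05 there were 2, 0, 0 and 1 higher and 0, 0, 1 and 0 lower. Among 13 mesenchyme and fibroblast genes 1 rose, Fn1, and 1 fell, S100a6, against 9 that rose in WT. Fn1, the matrix protein fibronectin, went from 776, 712 and 821 to 1289, 1756 and 1646 (0.99 ± 0.24, limma adjusted p = 0.023), and the difference from the WT change did not pass (0.26 ± 0.34, limma adjusted p = 0.775). The 6 fibroblast feeder markers summed to 170.1 to 386 in KO ESCs, 339 to 679 in KO EBs and 732 to 2754 in WT EBs.

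Of 21 writers, erasers and readers of m6A 1 was called in KO EBs. It was Igf2bp1, a reader that stabilises its mRNA targets, which fell from 2869, 1513 and 1957 to 1033, 1024 and 669 (-1.17 ± 0.26, limma adjusted p = 0.00996), and in WT by -0.78 ± 0.26. With levels as deposited 10 of the 21 were called, all lower, where 2238 of all 11807 kept genes were lower. With ribosomal protein scaling 4 were called, all lower, where 777 of all kept genes were lower. The reader Ythdf2 and the eraser Alkbh5 had differences of -0.55 ± 0.30 and 0.87 ± 0.32 (limma adjusted p = 0.439 and 0.183). Stress genes moved in both directions, 4 of 14 higher and 1 lower, against 1.23% and 0.678% of all kept genes. Mt1, a metallothionein, rose from 1429, 2607 and 1812 to 3431, 3964 and 4685 (1.07 ± 0.23, limma adjusted p = 0.00853), as it did in WT (1.04 ± 0.23). Nqo1, a quinone reductase under Nrf2 control, rose by 1.25 ± 0.31, and Ddit3, the factor CHOP, by 1.56 ± 0.42. Txnip, an inhibitor of thioredoxin that high glucose induces, rose by 1.73 ± 0.37, but its levels, 972, 117 and 72.6 in KO ESCs and 1127, 741 and 548 in KO EBs, parted after actinomycin rather than at 0 h. Hmox1, heme oxygenase, fell from 6606, 9393 and 6859.7 to 3268, 2538 and 2072 (-1.53 ± 0.21, limma adjusted p = 2.72e-05), where WT levels changed by -0.02 ± 0.21.

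The remaining lists held few calls in KO EBs. Pmaip1 (Noxa), a p53 target that promotes apoptosis, rose from 99.6, 116 and 146 to 515, 471 and 515 (1.86 ± 0.35, limma adjusted p = 0.0016), the 1 call among 21 p53 targets. Of these targets 7 were higher and none lower at an unadjusted p under 0.05, where 7.14% of all kept genes were higher and 6.03% lower. Cdkn2a, a cell cycle inhibitor locus, rose from 379, 661 and 831 to 1002, 1520.5 and 1487 (1.11 ± 0.27, limma adjusted p = 0.0209), the 1 call among 32 cell cycle genes. At the unadjusted threshold 3 cell cycle genes were higher and 2 lower. Peg3, a paternally expressed imprinted gene, fell by -1.29 ± 0.34 and was the 1 call of 17 imprinted genes. None of 15 DNA methylation genes, 23 cholesterol synthesis and LDL uptake genes, 77 mitochondrial ribosomal protein genes, 47 proteasome genes or 242 zinc-finger genes was called by limma. At an unadjusted p under 0.05 they had 1, 0, 1, 0 and 7 higher and 1, 4, 3, 4 and 8 lower, in the same order. Of 88 oxidative phosphorylation genes 2 rose and none fell in KO EBs, and 35 fell in WT, where 10.2% of all kept genes did. In KO 1 rose and 17 fell with ribosomal protein scaling, where 777 of all 11807 kept genes fell. With levels as deposited 1 rose and 19 fell, where 2238 of all kept genes fell. Cytoplasmic ribosomal protein genes, 83 in all, had 4 that rose and a 0 h median of 0.41. At an unadjusted p under 0.05, 32 were higher and none lower, where 7.14% and 6.03% of all kept genes were. The number of higher calls ran from 0 to 32 over the settings: it was 32 with the 6 KO libraries only, 31 at a mean level of at least 200, 16 and 19 without the WT pair at 0 or at 8 h, 1 without that at 4 h, and 0 without any 1 of the KO pairs, with no level filter, with no variance trend, with no hour terms or with levels as deposited, where 2 fell. With their own scaling the median estimate went from 0.36 to 0.01 by construction, with 2 higher and 2 lower. Rpl4 and Rpl13 are among the 4 and are uncertain, since the small nucleolar RNA genes Snord16a and Snord68 lie within them and were called higher too.

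Fitted directly, the change in KO lay above that in WT for 267 genes (2.26%) and below it for 198 (1.68%). Among the 267 were genes that rose in KO EBs and fell in WT EBs. Porcn, the acyltransferase that Wnt proteins need for secretion, was at 199, 305 and 167 in KO ESCs and 938, 1102 and 1266 in KO EBs, and at 737, 1111 and 1584 and 559, 423 and 389 in WT ESCs and EBs (3.44 ± 0.44, limma adjusted p = 2.35e-06). Cobl, an actin nucleator, went from 311, 663 and 331 to 1118, 827 and 1057 in KO and from 1751, 2311 and 1459 to 358, 371 and 285 in WT (3.57 ± 0.42, limma adjusted p = 4.45e-07). Col9a2, a collagen IX chain, and Tuba3a, a tubulin, behaved alike, rising by 1.54 ± 0.36 and 1.42 ± 0.33 in KO and falling by 2.56 and 2.27 in WT. In each of the 4 the KO ESC level at 0 h was the lower of the ESC levels. Among the 198, the greatest gaps were in genes high in WT EBs: S100g, a calcium-binding protein of gut and uterus, at 3799.7, 4080.1 and 4556 in WT EBs and 9.05, 76.2 and 93.2 in KO EBs, Spink1, a trypsin inhibitor, at 4922, 6321 and 7321 and 24.5, 57.1 and 19.9, Pth1r, the parathyroid hormone receptor, at 1557, 2083 and 2452 and 68.4, 97.6 and 147, and Car4, a carbonic anhydrase, at 1096, 1490 and 1780.3 and 60.8, 10.7 and 106.

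The number of calls moved with the processing. Without the KO pair at 0, 4 or 8 h, 53, 40 and 45 genes rose and 31, 20 and 22 fell. WT EBs had more calls than KO EBs in both directions in each of the 19 fits that hold both genotypes, except that 727 genes fell in WT and 777 in KO with ribosomal protein scaling. Called in every one of the 20 fits were 12 genes that rose and 6 that fell. Among those that rose were Tafa1, Hdx, Dazl, Pknox1, Zfpm2, Aire, Lgals3, Porcn, Bnip3, Sdc4 and Lefty2; those that fell were Trh, Klhl13, Cltb, Camk1d, Aim2 and S100a6. Lgals3, galectin-3, and Sdc4, the proteoglycan syndecan-4, were named for this after their values were seen. They stood at 88.3, 121 and 94.1 and at 235, 225 and 249 in KO ESCs. In KO EBs the levels were 627, 626 and 466 for Lgals3 and 818, 825 and 1122 for Sdc4, above every KO ESC library in each case.

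Leaving out 1 hour pair ended the calls of many single genes. Of the 75 genes named here or in the closing section that were called in KO EBs, 24 were called without any 1 of the 6 hour pairs: beside the 17 just listed, these were Grem1, Sgip1, Myt1l, Slc16a3 and Scd2, with Hmox1 and S100a5. The call ended without any of the 3 KO pairs for 27, among them Aldoa, Slc2a1, Pfkp, Fn1, Dusp6, Smad7, Cdkn2a, Nqo1, Ddit3, Col9a2, Rarg, Gli1, Peg3, Bace1, Flywch1, Patz1, Ifitm1, Ephb4 and Rpl4. For 5 of the 27 (Dppa5a, Sparc, Tcf15 and Rpl13 with its Snord68) it also ended without the WT pair at 4 h. The KO pair at 0 h or at 8 h was needed for Ankrd37, Cobl, Igf2bp1, Mt1 and Zfhx2, that at 0 h or at 4 h for Cgnl1, Ier5 and Tuba3a, and that at 4 h or at 8 h for Clu and Txnip. Msln and Pmaip1 were lost without the KO pair at 0 h, P4ha1 without that at 4 h, and Ddit4, Scd1 and Vmn2r65 without that at 8 h.

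**Figure D4:**
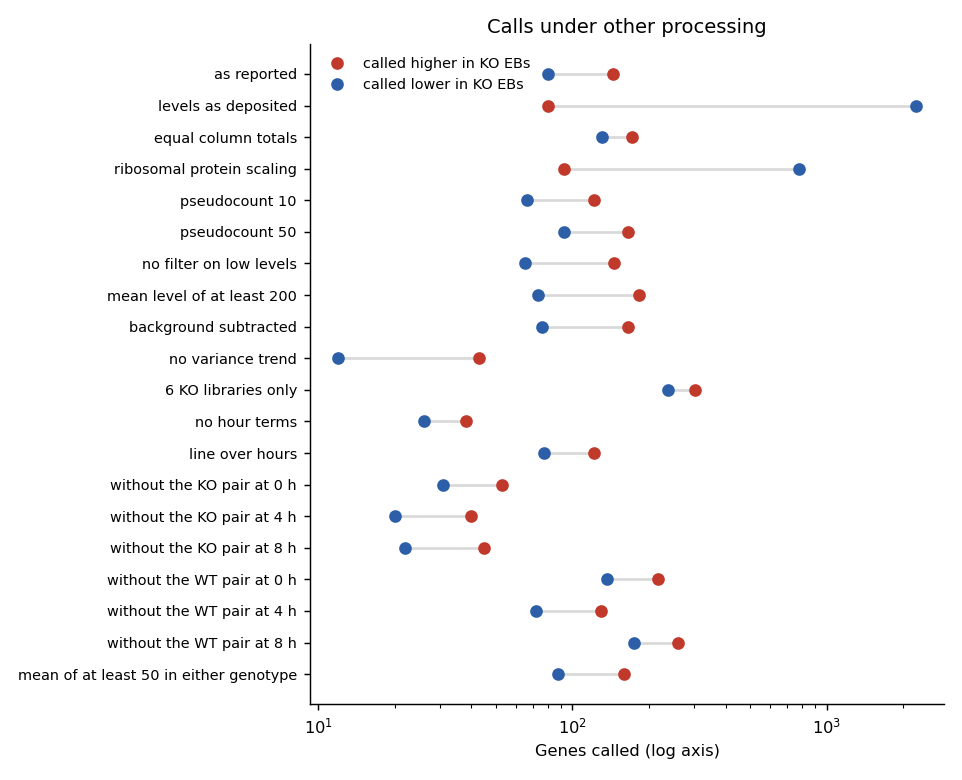
Number of genes called higher (red) and lower (blue) in KO EBs against KO ESCs under the processing reported and 19 others, on a log axis. The 2 scalings that do not centre the median gene at 0, as deposited and ribosomal, turn the balance towards lower calls (2238 and 777), and each fit without a KO hour pair has fewer calls.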

How the data were processed

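RNA from the 12 cultures was sequenced at its 3' ends. The deposited table holds a normalized signal per RefSeq entry in 1 column per library. CASAVA 1.8.2, Bowtie and Bowtie2 2.1.0 with the mm10 genome stand in the submitters' processing notes, and the normalization method is not given in the labels or headers used here. Of 19746 entries, 19535 were matched to symbols through a RefSeq gene table and 98 through GENCODE, 113 had no symbol and 38 identical duplicates were dropped; 118 share a symbol. Columns were scaled by median ratio to the geometric mean of the 6 KO columns. Entries with a mean deposited level under 50 over those columns were left out.

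The fit was limma 3.58.1 in R 4.3.3, two-sided, with a variance trend, on log2(scaled level + 25). It had 6 genotype by hour terms and an EB minus ESC term in each genotype, which left 4 residual degrees of freedom and 28.2 prior ones. P-values were Benjamini-Hochberg adjusted over all kept entries, with a threshold of 0.05. The labels give no replicates, so p-values rest on how the EB minus ESC difference varies between hours, which may be technical. Most of the weight of that spread comes from the trend over all genes. Read equivalents were taken from the spacing of low values, and their precision is given as exact Poisson intervals, approximate where they are fractions.

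The genes named were Mettl3 and core pluripotency factors, the 12 called genes with the largest 0 h change in each direction (level of at least 200 in the higher cell type), the 8 largest differences between genotypes, and up to 6 members per list. Named outside it, after their values were seen, were Lefty2, Pdk1, Vegfa, Pgk1, Gapdh, Eno1, Alkbh5, Lama1, Lamb1, the snoRNA genes and those so marked; Ttr, Gata6 and Sox17 are cell type markers. Members and lists were chosen with earlier results of these data known. Alternatives covered the scaling, the added 25, the level filter, a background subtraction, the variance trend, the libraries and hour terms fitted, and leaving out each hour pair; a filter on either genotype was added after seeing the data. A planned display of sterol-response promoters was not made, since fewer than 5 cholesterol genes were called.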

Additional observations from a re-analysis of the deposited data

Results flagged for a closer look

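The change from ESCs to EBs differed between the genotypes by the limma test of that difference for 267 genes with the larger value in KO and 198 with the smaller. Among genes with a level of at least 200 at 0 h in some culture, the KO change exceeded the WT change by the most, on the log2 scale, for Tex13b (5.11), Stra8 (4.77), Col9a2 (4.10), Tuba3a (3.69), Cobl (3.57), Porcn (3.44), Sohlh2 (3.39) and Dazl (3.24). In all 8 the KO EB level was above the KO ESC level at each hour, and in the first 7 the WT EB level was below the WT ESC level. The KO change lay furthest under the WT change for S100g (-6.76), Pga5 (-6.49), Pth1r (-6.03), Car4 (-5.83), Spink1 (-5.67), Col4a2 (-5.47), Krt8 (-4.90) and Col4a1 (-4.86). All 8 were higher in WT EBs than in KO EBs at each hour, and of them Pga5 was called lower in KO EBs while the other 7 had no KO call.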

How the results depend on the processing

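Against 145 higher and 80 lower calls in KO EBs, other fits gave 80 and 2238 with levels as deposited, 93 and 777 with ribosomal protein scaling, 43 and 12 with no variance trend, 304 and 238 with the 6 KO libraries only and 38 and 26 with no hour terms, and 131 were lower with equal column totals. Leaving out single hour pairs gave 40 to 259 higher and 20 to 174 lower; the highest counts, 259 and 174, came without the WT pair at 8 h, and 218 and 137 came without that at 0 h. For the KO change minus the WT change (267 and 198) the values were 104 higher as deposited, 321 lower with equal totals, 110 and 418 with ribosomal scaling, 64 and 106 with no trend, 93 and 92 with no hour terms, and 117 to 638 and 103 to 332 without single pairs, the highest without the WT pair at 0 h. The 2-fold counts at 0 h (888 and 642) became 346 and 2561 as deposited, 520 and 1704 with ribosomal scaling, 582 and 414 with 50 added, 2490 higher with no level filter, and 306 and 232 at a mean level of at least 200. WT calls (878 and 1204) became 341 and 3299 as deposited, 662 lower with equal totals, 727 lower with ribosomal scaling, 2297 higher with no level filter, 507 and 549 at a level of at least 200, 536 lower with no trend, 395 and 555 with no hour terms, and 380 to 1065 and 601 to 1563 without single pairs. Beyond the alternatives' own construction (fewer genes or libraries), the cause was not tested.

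Single genes that changed sign were uncalled ones. With levels as deposited the values were Col4a1 -0.57, Eno1 -0.61, Gapdh -0.63, Mettl3 -0.44, Pgk1 -0.014, Pkm -0.46, Pou5f1 -0.61, Sox2 -0.67 and Tbx3 -0.26, and with ribosomal scaling Col4a1 -0.27, Eno1 -0.26, Gapdh -0.28, Mettl3 -0.22, Pkm -0.10, Pou5f1 -0.26 and Sox2 -0.33. Background subtraction gave Mettl3 -0.10 and Col4a1 -0.0049, no level filter Col4a1 -0.016 and Sox2 -0.023, and the filter on either genotype Sox2 -0.0029. Without single hour pairs Col4a1 ran from -0.12 to 0.20, Eno1 from -0.052 to 0.23, Esrrb from -0.47 to 0.021, Krt8 from -0.32 to 0.084, Lamb1 from -0.52 to 0.061, Mettl3 from -0.57 to 0.66, Nanog from -0.50 to 0.10, S100g from -0.85 to 0.43 and Sox2 from -0.058 to 0.11. The 16 genes named by the rule for the largest differences between genotypes each kept the sign and call of that difference under every alternative that held the gene. The other differences between genotypes given here, those of Pou5f1, Nanog, Esrrb and Zfp42 among them, were not followed over the alternatives. No paired analysis by replicate was possible because the labels give no replicate numbers; hours served as pairs. Depth limits genes near 0 in KO ESCs, where a level rests on few reads.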

Other observations

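A few further genes were looked at after their values were seen. Scd1 and Scd2, desaturases that make monounsaturated fatty acids, both fell. Scd2 stood at 2968, 3451 and 3249 in KO ESCs and 1177, 1039 and 1250.1 in KO EBs, with no overlap of the libraries (-1.46 ± 0.23, limma adjusted p = 0.000188). Scd1 stood at 342, 359 and 590.5 and 107, 117 and 98.9 (-1.74 ± 0.35, limma adjusted p = 0.00373). It fell in WT by 2.19, and the difference between the genotypes, 0.45 ± 0.50, did not pass (limma adjusted p = 0.706). Fasn, the fatty acid synthase, differed by -0.81 ± 0.25 in KO and did not pass (limma adjusted p = 0.102).

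Rarg, a retinoic acid receptor, and Tcf15, a helix-loop-helix factor of cells leaving the naive state, rose in KO EBs and fell in WT EBs. Rarg went from 374, 287 and 374 to 1220.2, 709.8 and 848 in KO (1.34 ± 0.30, limma adjusted p = 0.00996) and fell by 0.95 in WT. Tcf15 went from 415, 691 and 849 to 1205, 1349.7 and 1365 (1.03 ± 0.28, limma adjusted p = 0.0481) and fell by 1.96 in WT. The difference between the genotypes was 2.29 ± 0.42 for Rarg and 2.99 ± 0.40 for Tcf15.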
